A study of Mus musculus with 8 samples.

Results

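The genes described here form the core of Hedgehog signalling: the ligand Shh, the surface proteins Ptch1, Boc, and Hhip, the signal transducer Smo, the intracellular inhibitor Sufu, and the transcription factors Gli1, Gli2, and Gli3. They were taken by gene symbol, with no filter on their values but with earlier results of these data known, and are 9 of the 21829 genes in the tables. RNA sequencing was done on retinas of ICR mice, for which the labels name no mutation and no treatment, and there was 1 library per condition. A pair of libraries came from whole retinas, at embryonic day 15 (E15) and E18. The other libraries, 6 of the 8, came from retinas at postnatal day 2 (P2), P5, and P8 that were pooled and sorted with an antibody to Cd73, a surface enzyme encoded by Nt5e that marks rod photoreceptors and their precursors. Sorting gave Cd73-positive cells (Cd73PC), enriched in the rod lineage, and Cd73-negative cells (Cd73NC), a mixture of interneurons, Müller glia, progenitors, and the other cells of the retina. Expression is given as FPKM, a level already divided by transcript length and library size, with the lower and upper confidence bound that Cufflinks assigned within the library. These bounds do not measure the spread between animals. With no replicate library, 2 single libraries cannot be compared by a test. A gene is said to have risen or fallen where FPKM + 1 differed by more than 1.5-fold between 2 libraries. The study also used 1.5-fold, in absolute values, and names no added 1.

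In Hedgehog signalling, Shh is secreted and binds Ptch1, a membrane protein that otherwise holds Smo inactive at the primary cilium. Boc helps Ptch1 to bind the ligand, and Hhip binds and sequesters it. Once Smo is active, the Gli proteins escape Sufu and enter the nucleus, where Gli2 acts mainly as an activator and Gli3 mainly as a repressor. Gli1, Ptch1, and Hhip are themselves switched on by the pathway, so that Gli1 is widely read as a measure of its activity, while Ptch1 and Hhip dampen it. In the developing retina, Shh is made by ganglion cells and acts on the progenitors next to them, where it promotes proliferation.

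The sort was checked against its defining genes. Nt5e was at 97.3, 131, and 124 FPKM in Cd73PC at P2, P5, and P8, and at 2.43, 31.4, and 9.38 FPKM in Cd73NC. Nrl, the transcription factor that sets the rod fate, was at 984, 1317, and 1417 FPKM in Cd73PC and at 28.3, 277, and 107 FPKM in Cd73NC, so that Cd73NC held rod RNA as well, and each of the 7 rod markers was higher in Cd73PC at all 3 stages. The 6 progenitor markers, which include the proliferation gene Ccnd1, summed to 816 to 1707 FPKM in Cd73NC and to 166 to 420 FPKM in Cd73PC. At P2, astrocyte and pigment epithelium markers summed to 25.4 and 53.6 FPKM in Cd73PC and to 2.54 and 0.595 FPKM in Cd73NC. The astrocyte markers were lower in Cd73PC at P5 and P8. The 8 markers of ganglion cells, the source of Shh, summed to 833 FPKM at E15 and 549.9 FPKM at E18 but to between 2.07 and 14.2 FPKM in the sorted libraries, where Pou4f3 was listed at 0 in 4 of the 6. Library depth, read from the steps in low FPKM values, ranged from 0.966 (E15) to 1.61 (P2 Cd73PC) relative to E18, and the absolute depth is not given in the sources used here. In bulk RNA, fewer cells of a type and less RNA per cell cannot be told apart.

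Shh, the ligand, lies on chromosome 5 from 28783380 to 28793641 in the build of the files, NCBI37/mm9. Its FPKM was 2.11 (bounds 1.64 to 2.59) at E15 and 2.42 (1.91 to 2.93) at E18. In P2 Cd73NC it was 0.0848, with a lower bound of 0 and an upper bound of 0.191. In P2 Cd73PC and in both fractions at P5 and P8, Shh was listed at 0. Its lower bound was thus above 0 in the whole retinas alone, whose bounds overlapped. Markers of ganglion cells were also far lower in the sorted libraries. Pou4f2, a transcription factor of these cells, was at 45.6 FPKM at E15 and 14.1 FPKM at E18, and at 0.391 FPKM in P2 Cd73NC and 0.0146 FPKM in P8 Cd73NC. In P2 Cd73NC the median ganglion cell marker was at 3.41% of its E18 level (1.24 to 6.58 from gene to gene). Shh was at 3.51% there (bounds 0 to 7.89), too uncertain to place among these markers. The whole retinas were not sorted and the postnatal ones were, so age and sorting cannot be told apart in this difference.

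Ptch1, the Shh receptor and a target of the pathway, lies on chromosome 13 from 63612841 to 63666828. Its FPKM was 19.3 (17.5 to 20.5) at E15 and 21.3 (19.4 to 22.5) at E18. The values for Cd73NC at P2, P5, and P8 were 16.3 (14.8 to 17.2), 19.0 (17.3 to 20.1), and 12.5 (11.3 to 13.3). Those for Cd73PC were 10.8 (9.81 to 11.5), 10.4 (9.30 to 11.4), and 10.5 (9.48 to 11.6). The Cd73PC level was therefore flat from P2 to P8, with bounds that overlapped, while Shh was listed at 0 there. Over the 8 libraries the highest and lowest Ptch1 levels differed by 2.05-fold, and on the log2 scale of FPKM + 1 this span was narrower than that of 63.7% of the 13413 expressed genes, meaning those with FPKM of at least 1 in some library and a value in all.

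Hhip, the decoy receptor and also a target, lies on chromosome 8 from 82489750 to 82581907. Its FPKM was 5.15 (4.72 to 5.58) at E15, 5.68 (5.23 to 6.13) at E18, and 4.68 (4.31 to 5.04) in P2 Cd73NC. It was then 0.837 (0.692 to 0.977) in P5 Cd73NC and 0.148 (0.0967 to 0.198) in P8 Cd73NC. The 3 stages of Cd73PC gave 1.17 (1.02 to 1.32), 0.180 (0.118 to 0.248), and 0.106 (0.0575 to 0.149). Hhip was thus high in the whole retinas and in P2 Cd73NC, and low in the other 5 libraries. From P2 to P5 in Cd73NC it was left at 17.9% (bounds 13.7 to 22.7) of its level, whereas Ptch1 stood at 116% (100.3 to 135) of its own. As a result, Ptch1 exceeded Hhip by 3.48-fold in P2 Cd73NC and by 83.9-fold in P8 Cd73NC.

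Since the 2 receptors that are targets of the pathway parted in this way, their promoters are shown from 250 bases before to 50 bases after the transcription start, as RefSeq gives them for GRCm38.p6, which is a later build than that of the FPKM tables. Capitals mark a GC box, the letters GGGCGG or, on the other strand, CCGCCC.
Ptch1, chr13:63565686-63565985, minus strand: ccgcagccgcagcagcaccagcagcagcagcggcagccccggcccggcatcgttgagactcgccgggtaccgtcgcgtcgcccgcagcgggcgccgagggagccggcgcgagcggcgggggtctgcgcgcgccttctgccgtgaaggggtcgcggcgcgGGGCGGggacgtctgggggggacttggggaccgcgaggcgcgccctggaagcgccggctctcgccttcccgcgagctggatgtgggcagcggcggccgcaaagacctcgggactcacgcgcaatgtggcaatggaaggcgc
Hhip, chr8:80057959-80058258, minus strand: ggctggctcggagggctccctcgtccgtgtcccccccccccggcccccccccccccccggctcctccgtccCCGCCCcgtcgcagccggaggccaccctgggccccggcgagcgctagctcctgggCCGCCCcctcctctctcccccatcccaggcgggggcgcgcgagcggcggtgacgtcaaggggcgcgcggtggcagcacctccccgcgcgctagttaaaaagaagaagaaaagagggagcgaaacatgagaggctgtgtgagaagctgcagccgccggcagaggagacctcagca
The Ptch1 promoter had 1 GC box, 47 CpG, and 76.3% G and C, and the Hhip promoter had 2 GC boxes, 30 CpG, and 73.7% G and C. The median over all 32851 promoters was 7 CpG and 52.7%. A GC box was found in 5 of the 6 promoters of these genes that the table held (Gli2, Gli3, Hhip, Ptch1, and Sufu, but not Smo) and in 35.7% of all promoters. The letters GACCACCCA, the consensus bound by Gli proteins, were searched on both strands too, and neither motif contains the other. They were in none of the 6 and in 83 of all promoters (0.253%), which says only that these letters are not in this window.

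Boc, the co-receptor, lies on chromosome 16 from 44485158 to 44558983 and was weakly expressed throughout. Its FPKM was 2.47 (2.04 to 2.88) at E15 and 1.35 (1.06 to 1.63) at E18. At P2, P5, and P8 it was 0.791, 0.873, and 0.623 in Cd73NC, and 0.213, 0.168, and 0.210 in Cd73PC. The bounds of the 2 fractions did not overlap at any of these stages. Without a pseudocount, Boc in Cd73PC was at 27.0% (bounds 13.1 to 50.2), 19.3% (7.35 to 39.1), and 33.7% (15.2 to 63.2) of its Cd73NC level.

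Smo, the transducer that Ptch1 holds in check, lies on chromosome 6 from 29685497 to 29711366. It was the most abundant of the 9 transcripts per length in 7 of the 8 libraries, although its bounds overlapped those of Gli1 at E18 and of Sufu in P5 Cd73PC. Its FPKM was 53.1 (48.9 to 54.2) at E15, 46.5 (42.7 to 47.5) at E18, 49.2 (45.4 to 49.4) in P2 Cd73NC, and 49.9 (46.0 to 50.9) in P5 Cd73NC. It was then 19.9 (18.1 to 20.5) in P8 Cd73NC, and in Cd73PC it was 22.4 (20.5 to 23.1), 11.3 (10.1 to 12.4), and 4.10 (3.53 to 4.65) at P2, P5, and P8. In Cd73NC, Smo stayed near its embryonic level to P5, at 101% of P2 (93.0 to 112), and stood at 39.8% of P5 by P8 (35.6 to 44.6). In Cd73PC the level was lower at each stage than at the one before, and the P8 library was the lowest of all. There Ptch1 exceeded Smo by 2.57-fold, whereas in the whole retinas and in Cd73NC it was at 0.331 to 0.627 of the Smo level.

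Sufu, the inhibitor that binds the Gli proteins in the cytoplasm, lies on chromosome 19 from 46471408 to 46561150. Its FPKM was 15.7 (14.2 to 17.3) at E15 and 12.6 (11.3 to 13.9) at E18. Cd73NC held 12.9 (11.7 to 14.1), 13.1 (11.8 to 14.3), and 15.0 (13.8 to 16.3) at P2, P5, and P8. Cd73PC held 10.1 (9.11 to 11.0), 11.2 (10.0 to 12.3), and 17.0 (15.5 to 18.4). The lowest and the highest of the 8 values were both in Cd73PC, at P2 and at P8, and they differed by 1.69-fold, the narrowest span among the genes described. In P8 Cd73PC, Sufu was the most abundant of them.

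**Figure D1:**
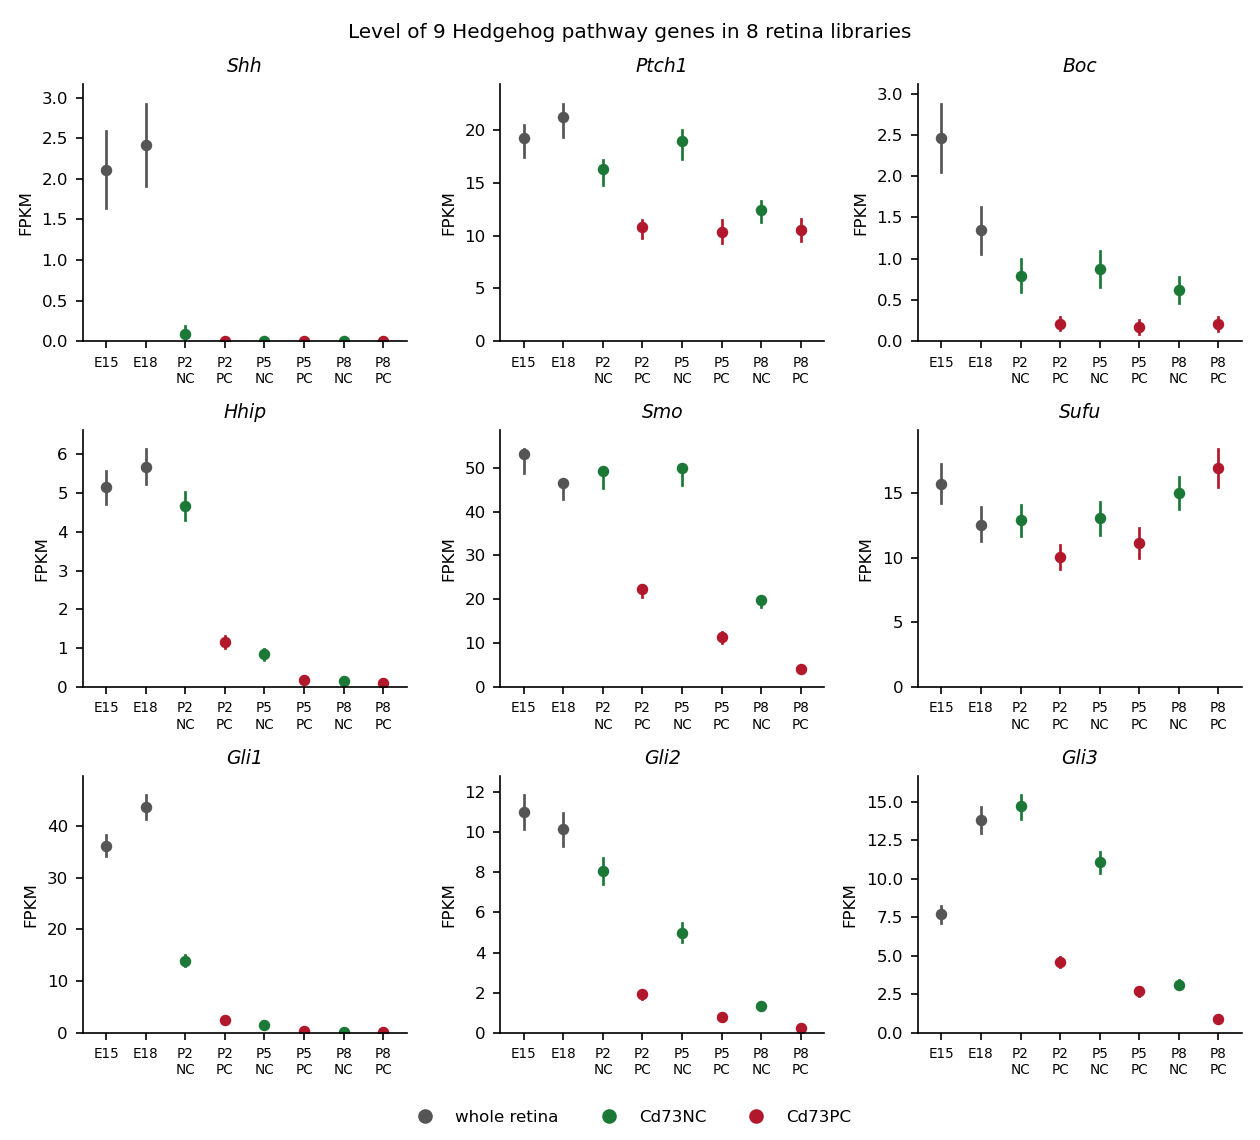
FPKM (vertical axes, linear, each from 0) of the 9 Hedgehog pathway genes in the 8 libraries, with grey points for whole retina, green for Cd73NC (NC), and red for Cd73PC (PC), and bars for Cufflinks' bounds within a library (no replicates). Gli1 was at 43.7 FPKM at E18 and 0.216 in P8 Cd73NC, while Ptch1 and Sufu stayed above 10 FPKM in every library.

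Gli1, the activator that is itself a target, lies on chromosome 10 from 126766938 to 126778635. Its FPKM was 36.2 (34.2 to 38.4) at E15 and 43.7 (41.3 to 46.0) at E18. Its level in Cd73NC was 14.0 (12.9 to 15.0), 1.40 (1.10 to 1.70), and 0.216 (0.114 to 0.317) at P2, P5, and P8. Its level in Cd73PC was 2.56 (2.20 to 2.91), 0.257 (0.137 to 0.394), and 0.0754 (0 to 0.151). Gli1 thus went from the second most abundant of these transcripts in the whole retinas to among the lowest at P8, and its lower bound in P8 Cd73PC was 0. From P2 to P5 it was left at 10.0% of its level in Cd73NC (7.31 to 13.1) and at 10.1% in Cd73PC (4.71 to 17.9). The highest over the lowest value was 579-fold, and on the log2 scale of FPKM + 1 only 1.01% of the 13413 expressed genes had a larger span.

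Gli2, the main activator, lies on chromosome 1 from 120730638 to 120950196. Its FPKM was 11.0 (10.2 to 11.9) at E15 and 10.1 (9.34 to 11.0) at E18. At P2, P5, and P8 it was 8.08 (7.44 to 8.72), 4.99 (4.51 to 5.48), and 1.33 (1.13 to 1.52) in Cd73NC, and in Cd73PC it was 1.92 (1.69 to 2.15), 0.775 (0.610 to 0.937), and 0.257 (0.171 to 0.342). At every stage the Cd73PC value lay below that of Cd73NC without overlap of bounds, and within each fraction the 3 stages did not overlap.

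Gli3, the main repressor, lies on chromosome 13 from 15555556 to 15821858. Its FPKM was 7.68 (7.10 to 8.26) at E15 and 13.8 (12.9 to 14.6) at E18. In Cd73NC it was 14.7 (13.9 to 15.4), 11.1 (10.4 to 11.7), and 3.11 (2.82 to 3.40) at P2, P5, and P8, and in Cd73PC it was 4.59 (4.24 to 4.94), 2.68 (2.39 to 2.97), and 0.869 (0.725 to 1.01). Gli3 was therefore highest at E18 and in P2 Cd73NC, which overlapped, whereas Gli2 was highest at E15 and E18, which overlapped as well. From P2 to P5 in Cd73NC it kept 75.4% of its level (67.2 to 84.8) and Gli2 61.8% (51.7 to 73.7).

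The make-up of the Gli transcripts differed between libraries, from mostly Gli1 in the whole retinas to mostly Gli3 at P5 and P8. Between the whole retinas and the sorted libraries, age and sorting cannot be told apart. Gli1 made up 65.9% of the summed FPKM of Gli1, Gli2, and Gli3 at E15 and 64.6% at E18, but 38.0% in P2 Cd73NC, 8.01% in P5 Cd73NC, and 4.63% in P8 Cd73NC. Gli3 made up 14.0% and 20.4% in the whole retinas and 40.0%, 63.4%, and 66.8% in Cd73NC. The ratio of Gli1 to Gli3 FPKM was 4.72 at E15, 3.16 at E18, 0.951 in P2 Cd73NC, 0.126 in P5 Cd73NC, and 0.0693 in P8 Cd73NC. Cd73PC held fewer Gli transcripts, with sums of 9.07, 3.72, and 1.20 FPKM against 36.7, 17.5, and 4.66 FPKM in Cd73NC, and its Gli3 share was 50.6%, 72.2%, and 72.4%. Gli2 kept between 15.0% and 28.6% in all libraries. These are shares of transcripts, and the balance of activator and repressor proteins, which depends on their processing, was not measured.

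**Figure D2:**
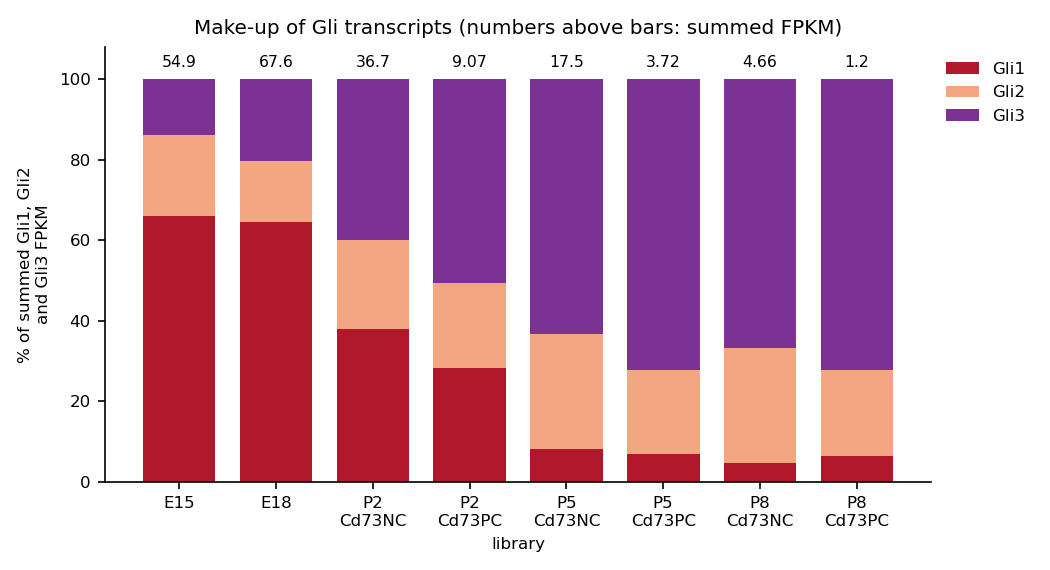
Share (vertical axis, in percent) of Gli1, Gli2, and Gli3 in their summed FPKM in each of the 8 libraries, with the sum printed above each bar (1 library per bar). The Gli1 share went from 65.9% at E15 to 4.63% in P8 Cd73NC, and Gli3 had the largest share in all postnatal libraries, by a small margin in P2 Cd73NC (40.0% against 38.0%). Whole retina and the sorted libraries differ in sorting as well as in age.

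The order of the levels differed between libraries too. At E15 it was Smo, Gli1, Ptch1, Sufu, Gli2, Gli3, Hhip, Boc, and Shh, and of these neighbours only Boc and Shh had overlapping bounds. In P2 Cd73NC, Ptch1, Gli3, Gli1, and Sufu could not be set in order, since each overlapped the next. In P8 Cd73PC, Sufu, Ptch1, Smo, and Gli3 stood apart from each other in that order, and Gli2, Boc, Hhip, Gli1, and Shh, all below 0.26 FPKM, overlapped from each to the next.

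The first comparison asked how the 2 fractions differed at each stage. At P2, 5 of the 9 genes were lower in Cd73PC than in Cd73NC by more than 1.5-fold (Gli1, Gli2, Gli3, Hhip, and Smo), where 14.4% of all genes were, and 0 were higher, where 8.56% of all genes were. The log2 ratio of FPKM + 1 was -2.07 for Gli1, -1.64 for Gli2, -1.49 for Gli3, -1.39 for Hhip, and -1.10 for Smo. Among the 13413 expressed genes, 0.343% had a lower ratio than Gli1. Of genes with FPKM of at least 1 in some library, as all 9 had, 23.3% were lower and 13.7% higher past 1.5-fold. Ptch1 (-0.55) and Boc (-0.56) came close to the threshold of 1.5-fold, Sufu was at -0.33, and Shh was listed at 0 in Cd73PC.

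At P5, 7 of the 9 genes were lower in Cd73PC, against 15.6% of all genes, and 0 were higher, against 7.02%. Of genes with FPKM of at least 1 in some library, 25.1% were lower and 11.3% higher. Smo had the largest difference (log2 ratio -2.05), before Gli2 (-1.76), Gli3 (-1.71), Gli1 (-0.93), Ptch1 (-0.81), Boc (-0.68), and Hhip (-0.64). At P8, Smo (-2.03), Gli3 (-1.14), and Gli2 (-0.89) were lower in Cd73PC. That is 3 of 9 against 18.6% of all genes, and 0 were higher, against 7.53%. Of genes with FPKM of at least 1 in some library, 29.6% were lower at P8 and 12.1% higher. The 3 of 9 was thus near the share lower among such genes. By then Gli1 and Hhip were below 0.22 FPKM in both fractions, and their bounds overlapped. Smo, Gli2, and Gli3 were lower in Cd73PC at all 3 stages, as were 7.83% of 21813 genes. That share covers all genes, and the share among genes with FPKM of at least 1 in some library was not counted. The median log2 ratio of the 9 genes was -1.10, -0.81, and -0.22 at P2, P5, and P8, and that of 13433 genes with FPKM of at least 1 in some library was -0.13, -0.17, and -0.22, so that at P8 the median of these genes was that of the library. The bounds of Ptch1 and Sufu in Cd73PC overlapped those in Cd73NC at P8. The Ptch1 ratio at P8, -0.22 as deposited, was 0.01 after quantile normalization.

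Since both fractions of a stage came from the same retinas, the 6 sorted libraries were also fitted together with limma, on log2(FPKM + 1) of the 13413 expressed genes with stage and fraction as terms, an analysis chosen after the data were seen. It leaves 2 residual degrees of freedom and takes as error how far the difference between fractions varied from stage to stage, not the spread between animals. Over the stages, Smo (mean log2 ratio -1.73 ± 0.23 SE, adjusted p = 0.0086), Gli3 (-1.45 ± 0.19, adjusted p = 0.0085), and Gli2 (-1.43 ± 0.23, adjusted p = 0.014) were lower in Cd73PC by limma with Benjamini-Hochberg adjustment, and each was lower at 3 of 3 stages. That is 3 of 9 genes against 18.6% of all genes fitted, and 0 were higher, against 8.48% (0 also at an unadjusted p under 0.05). Without P5 these calls were lost, with adjusted p of 0.091 for Smo, 0.11 for Gli3, and 0.13 for Gli2 by limma, and 0 of the 13413 genes were then called lower. Without P8, Gli1 was called lower as well (adjusted p = 0.044). Boc (-0.56, adjusted p = 0.057), Ptch1 (-0.53, 0.073), Gli1 (-1.06, 0.095), and Hhip (-0.69, 0.13) did not pass, and neither did Sufu (-0.12, 0.59), while Shh, listed at 0 in 5 of the 6 libraries, cannot be read from this fit.

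**Figure D3:**
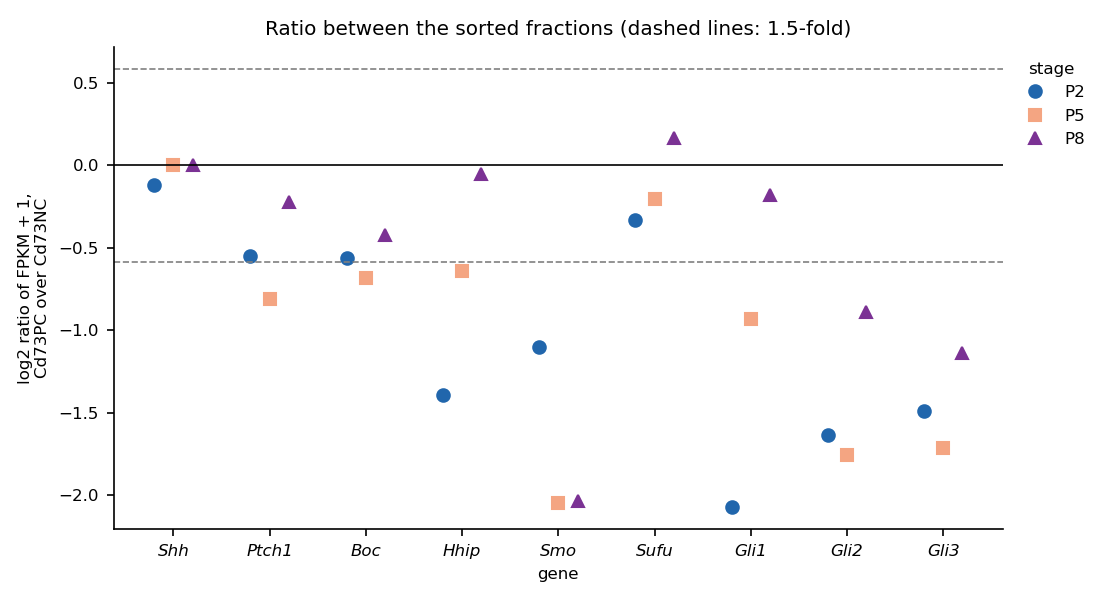
Log2 ratio of FPKM + 1 in Cd73PC over Cd73NC (vertical axis) for each gene at P2 (circles), P5 (squares), and P8 (triangles), with dashed lines at 1.5-fold (1 library per fraction, so no error bars). Smo, Gli2, and Gli3 lie below the lower line at all 3 stages, Sufu lies between the lines, and the points of Shh at P5 and P8 stand for levels listed at 0 in both fractions.

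The level in Cd73PC was also expressed as a percentage of that in Cd73NC, without a pseudocount, and set beside the marker lists. At P2 it was 18.3% for Gli1 (bounds 14.7 to 22.5), 23.8% for Gli2 (19.3 to 28.9), 25.0% for Hhip (20.1 to 30.6), and 31.2% for Gli3 (27.5 to 35.6). The 6 progenitor markers, all lower in Cd73PC, had a median of 24.0% (18.4 to 32.5 from gene to gene), and the 16 cell cycle genes, all lower as well, a median of 30.7% (23.8 to 34.6). The median was 42.9% for the 7 Müller glia markers (20.9 to 147), 24.6% for the 5 amacrine cell markers (22.7 to 731), and 21.3% for the 5 markers of endothelial cells and pericytes (13.1 to 66.4). Of these lists, 5, 4, and 3 genes were lower in Cd73PC past 1.5-fold, and Slc6a9, an amacrine cell marker, was higher. The percentages of Gli1, Gli2, Hhip, and Gli3 thus lay near the medians of several of these lists, those of dividing cells and of other cells left in Cd73NC alike. Ptch1, at 66.5% (57.0 to 77.6), and Sufu, at 78.0% (64.6 to 94.2), lay above the median of each. So did Smo, at 45.6% (41.4 to 51.0), but its bounds included the Müller glia median.

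At P5 the corresponding percentages were 15.5% for Gli2, 18.4% for Gli1, 21.5% for Hhip, 22.7% for Smo, and 24.2% for Gli3, beside medians of 25.1% for progenitor markers, 33.5% for cell cycle genes, and 26.1% for Müller glia markers, while Ptch1 was at 54.8% and Sufu at 85.7%. At P8 they were 19.3% for Gli2, 20.6% for Smo, and 27.9% for Gli3, beside 18.8%, 28.9%, and 20.2% for the same lists, while Ptch1 was at 84.6% and Sufu at 113%. The percentages of Gli1 and Hhip at P8, with bounds of 0 to 132 and 29.0 to 155, were too uncertain to place. Progenitor markers were lower in Cd73PC in 6 of 6 cases at each stage, and Müller glia markers in 5, 6, and 7 of 7. None of the progenitor markers was at 0 in any library. The part of other cells' RNA in the Cd73PC levels was not tested.

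**Figure D4:**
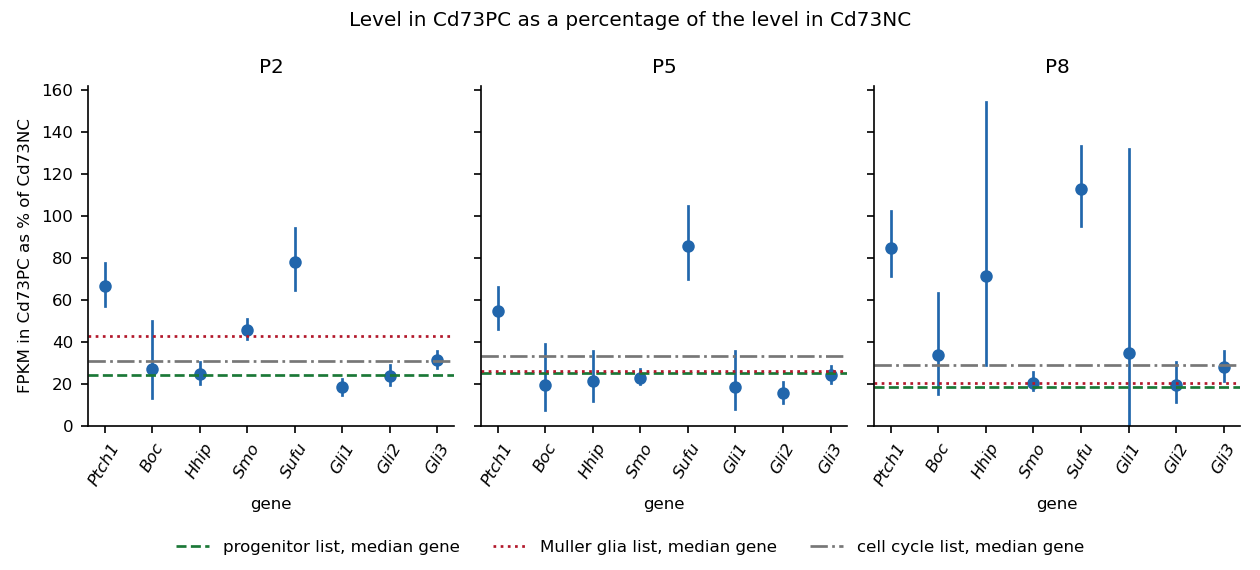
FPKM in Cd73PC as a percentage of FPKM in Cd73NC (vertical axis) for 8 genes at P2, P5, and P8, with bars from the lower bound over the upper bound to the upper over the lower, and lines at the median gene of the progenitor, Müller glia, and cell cycle lists. Shh is left out because it was listed at 0. Gli2 lies at 23.8%, 15.5%, and 19.3%, beside progenitor medians of 24.0%, 25.1%, and 18.8%, and Ptch1 and Sufu lie above all lines.

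The second comparison followed the fractions from P2 to P8. In Cd73NC, 5 of the 9 genes fell, against 14.3% of all genes, and 0 rose, against 13.5%. Of genes with FPKM of at least 1 in some library, 23.0% fell and 20.9% rose. The log2 ratio was -3.62 for Gli1, -2.31 for Hhip, -1.96 for Gli2, -1.93 for Gli3, and -1.27 for Smo, and 0.589% of expressed genes had a lower ratio than Gli1. Ptch1 (-0.36), Boc (-0.14), Shh (-0.12), and Sufu (0.21) did not pass 1.5-fold. In Cd73PC the same 5 genes fell, against 14.7% of all genes, with log2 ratios of -2.20 for Smo, -1.73 for Gli1, -1.58 for Gli3, -1.22 for Gli2, and -0.97 for Hhip. Sufu rose (0.70), 1 of 9 against 6.40% of all genes, while Ptch1 was at -0.04 and Boc at -0.004. Of genes with FPKM of at least 1 in some library, 23.7% fell and 10.3% rose in Cd73PC. The median log2 ratio of the 9 genes was -1.27 in Cd73NC and -0.97 in Cd73PC, and that of expressed genes was -0.05 and -0.18. In the limma fit of the 6 sorted libraries, the mean P8 over P2 log2 ratio was -2.67 ± 0.46 (SE) for Gli1 (adjusted p = 0.028), -1.76 ± 0.23 for Gli3 (0.017), -1.73 ± 0.28 for Smo (0.025), -1.64 ± 0.35 for Hhip (0.042), and -1.59 ± 0.29 for Gli2 (0.030). By limma these 5 of 9 fell on average over the fractions, against 10.5% of all genes fitted, and 0 rose (0 also at an unadjusted p under 0.05), against 3.98%, with Sufu at 0.45 ± 0.20 (adjusted p = 0.17). Both fractions of a stage came from the same pooled retinas, so this fit takes them as repeats of an age. Its p-values for age hold no spread between pools or animals.

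Over the same days the 16 cell cycle genes fell in Cd73NC, all of them, with a median log2 ratio of -4.26, and in P8 Cd73NC their median was 3.48% of the E18 level (1.73 to 15.9 from gene to gene). In P2 Cd73NC, however, that median was 107% of E18, with a range of 66.4 to 144, whereas Gli1 was at 32.0% (29.7 to 34.4). Hhip was at 82.3% and Gli2 at 79.6% there. At P5 Gli1 was at 3.20% of E18, Hhip at 14.7%, and the median cell cycle gene at 25.6% (16.5 to 32.5), so that Gli1 lay below the range of that list, while the bounds of Hhip (12.2 to 17.2) reached into it. Smo at P5 was at 107% and Gli3 at 80.2%. Other lists moved in Cd73NC as well from P2 to P8: the amacrine cell markers summed to 158 and 12.4 FPKM, and the bipolar cell markers to 4.90 and 613 FPKM. The part of these changes in cell make-up in the levels of the 9 genes was not tested.

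**Figure D5:**
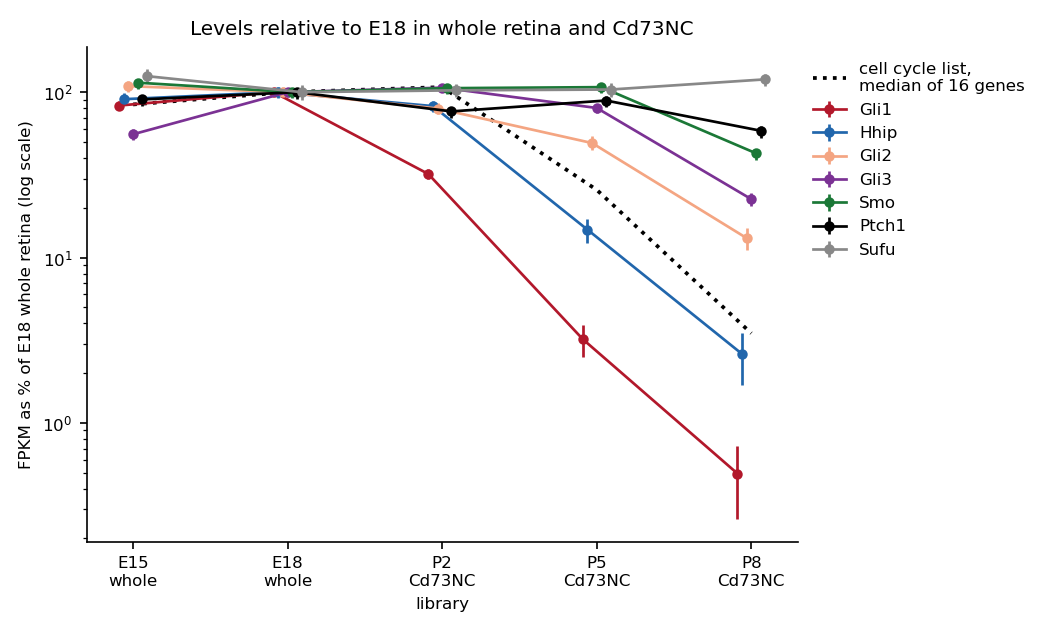
FPKM as a percentage of the level in E18 whole retina (vertical axis, log scale) for 7 genes in E15 and E18 whole retina and in Cd73NC at P2, P5, and P8, with bars for Cufflinks' bounds and a dotted line for the median of 16 cell cycle genes (1 library per point; whole retina and Cd73NC differ in sorting as well as in age). Gli1 was at 32.0% in P2 Cd73NC, where the cell cycle median was 107%, and Sufu and Smo were not below 100% from E18 to P5.

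The third comparison was between the embryonic stages. From E15 to E18, 1 of the 9 genes rose, Gli3 (log2 ratio 0.77), against 4.61% of all genes, and 0 fell, against 2.09%. The shares among genes with FPKM of at least 1 in some library were 7.38% and 3.31%. Gli1 (0.26), Ptch1 (0.14), Shh (0.13), and Hhip (0.12) were slightly higher at E18, and Gli1 alone of these had bounds that did not overlap. Boc (-0.56), Sufu (-0.30), and Smo (-0.19) were lower without overlap of bounds but within 1.5-fold on FPKM + 1. Without the pseudocount the Boc difference was 1.83-fold, so that 1 gene had fallen, as it had with a pseudocount of 0.1 or after quantile normalization. The shares of all genes that had fallen were then 6.83%, 6.06%, and 3.01%. The median log2 ratio was 0.12 for the 9 genes and 0.04 for expressed genes. The ganglion cell markers summed to 66.0% of their E15 level at E18, with a median of 79.2% and a range of 31.0 to 1280 from gene to gene. Of these 8 markers, 3 fell, 2 rose, and 3 did not pass 1.5-fold, where 2.09% of all genes fell and 4.61% rose. Shh was at 114% (73.7 to 178).

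Of 31 other genes of the pathway, listed by role, at P2, P5, and P8 respectively 7, 10, and 12 were lower in Cd73PC, against 14.4%, 15.6%, and 18.6% of all genes, and 5, 4, and 7 were higher, against 8.56%, 7.02%, and 7.53%. Of genes with FPKM of at least 1 in some library, 23.3%, 25.1%, and 29.6% were lower, and 13.7%, 11.3%, and 12.1% higher. The median log2 ratios of the 31 were -0.16, -0.18, and -0.27. Those lower at all 3 stages were 5 of the 31, against 7.83% of all genes: Cdon and Gas1, which like Boc help the ligand to bind, Evc and Evc2, which relay the signal from Smo at the base of the cilium, and Gpr161, a receptor of the cilium that restrains the pathway. For all 3 stages together, the share among genes with FPKM of at least 1 in some library was not counted. Gas1 was at 75.8, 45.3, and 24.1 FPKM in Cd73NC and 14.1, 6.48, and 3.83 FPKM in Cd73PC at P2, P5, and P8, and fell from P2 to P8 in both fractions (log2 ratios -1.62 and -1.65). Cdon took another course, with 24.5, 54.2, and 25.4 FPKM in Cd73NC and 10.8, 10.1, and 6.17 FPKM in Cd73PC, so that it was highest in P5 Cd73NC when Shh was listed at 0. Among the 3 co-receptors, Gas1 and Cdon thus exceeded Boc per length in every library.

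Higher in Cd73PC at all 3 stages were 2 of the 31, against 3.51% of all genes. Here too the share among genes with FPKM of at least 1 in some library was not counted. Dhh, another Hedgehog ligand, was at 0.625, 2.33, and 2.31 FPKM in Cd73PC and at 0.0724, 0.958, and 0.446 FPKM in Cd73NC, and so had a level in libraries where Shh was listed at 0. Arl13b, a small GTPase of the cilium, was at 16.3, 18.3, and 22.9 FPKM in Cd73PC and at 6.12, 5.50, and 4.85 FPKM in Cd73NC. Prkar1a, a subunit of protein kinase A with the highest single value of the list, in P8 Cd73NC, was at 129, 102, and 178 FPKM in Cd73NC and 106, 77.0, and 80.7 FPKM in Cd73PC, and was lower in Cd73PC by more than 1.5-fold at P8 alone (log2 ratio -1.13). From P2 to P8, 8 of the 31 fell and 3 rose in Cd73NC, where 14.3% and 13.5% of all genes did, and 6 fell and 3 rose in Cd73PC, where 14.7% and 6.40% did, with medians of -0.10 and -0.21. Among genes with FPKM of at least 1 in some library, these shares were 23.0% and 20.9% in Cd73NC and 23.7% and 10.3% in Cd73PC. From E15 to E18, 2 fell and 1 rose, against 2.09% and 4.61% of all genes, with a median of -0.06.

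The proliferation genes reported to respond to Hedgehog, 6 in number, were lower in Cd73PC in 4 cases at P2 (1 was higher), in all 6 at P5, and in 4 at P8, while the 16 cell cycle genes were lower in 16, 15, and 11 cases, against 14.4%, 15.6%, and 18.6% of all genes at these stages. Ccnd1, the cyclin that drives entry into the cell cycle, was the highest, at 839 FPKM at E15, 1084 at E18, 1095 in P2 Cd73NC, 240.4 in P5 Cd73NC, and 41.8 in P8 Cd73NC. In Cd73PC it was at 272, 76.3, and 9.31 FPKM. In P2 Cd73NC, Ccnd1 was thus at its E18 level while Gli1 was at 32.0% of its own. Hes1, an effector of Notch, was at 56.9, 22.9, and 16.6 FPKM in Cd73NC and 13.7, 4.66, and 2.09 FPKM in Cd73PC, and Bcl2, an inhibitor of cell death, was at 2.79, 2.02, and 1.46 FPKM and 0.942, 0.492, and 0.338 FPKM.

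Finally, the genes whose log2(FPKM + 1) over the 8 libraries was most like that of a given gene were listed, as a description, by Pearson's r (n = 8). The libraries share stage and fraction, so that many genes with one course reach a high r. For Shh they were Slc6a4 (0.998), the serotonin transporter, Lhx1 (0.996), a transcription factor, and Cyp4x1 (0.996), and 137 of 13412 genes (1.02%) had an r of at least 0.95. Like Shh, Slc6a4 was at 2.07 FPKM at E15 and 2.00 at E18 and at no more than 0.08 FPKM in the sorted libraries. For Gli1 they were Fam81a (0.997), Cchcr1 (0.996), and Phtf1 (0.995), among 435 genes (3.24%). For Hhip they were Atad5 (0.9996), Blm (0.999), and Brip1 (0.999), each a gene of DNA replication and repair, among 526 genes (3.92%). For Ptch1 they were Cdk6 (0.991), a kinase of the cell cycle, Gm7694 (0.978), and Aasdh (0.977), among 34 genes (0.254%), so that its course was shared by fewer genes. Between the 9 genes themselves, r was highest for Hhip and Gli1 (0.987) and for Smo and Gli3 (0.948), and it was 0.795 for Ptch1 and Gli1. Sufu had the lowest values, from -0.28 with Gli3 to 0.36 with Boc.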

How the data were processed

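The authors aligned short single-end reads of 8 unstranded retina libraries (poly(A) RNA, random primers) to NCBI37/mm9 with TopHat2 2.0.8b and, with Cufflinks 2.1.1, deposited FPKM values with confidence bounds for 23021 rows per library, after base calling with CASAVA 1.8.2 and bcl2fastq 1.8.4, per the submitters' processing notes. Reads may map to several places, and without strand, overlapping antisense genes cannot be told apart.

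From the deposited FPKM, 786 small RNA rows were left out by symbol, rows of a symbol were summed (21829 genes), and failed rows (4 to 10 per library) were set to missing. Each of the 9 genes had 1 row, with 0 failures and 0 of 72 values outside its bounds. Ratios were taken on FPKM + 1, where changes of weakly expressed genes come out too small, and called past 1.5-fold. Groups came from the labels. With 1 library per condition, single libraries were not tested against each other. Added after the data were seen, limma 3.58.1 was fitted to the 6 sorted libraries with stage and fraction as terms (moderated test with trend, Benjamini-Hochberg adjustment), since both fractions of a stage came from the same retinas.

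The genes, the lists (107 genes, all found), and the tests were chosen with earlier results of these data known. Of the lists, genes past 1.5-fold in the same direction at all 3 stages, or highest in FPKM, were named. Alternatives were pseudocounts of 0 and 0.1, a filter for FPKM of at least 1, upper-quartile and quantile scaling, a 2-fold threshold, and non-overlapping bounds. Python 3.11.15, numpy 2.4.6, pandas 2.3.3, and matplotlib 3.10.9 were used, and scripts were tested on simulated data first.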

Additional observations from a re-analysis of the deposited data

Results flagged for a closer look

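Sufu was singled out because its log2 ratio of Cd73PC over Cd73NC, on FPKM + 1, was -0.33 at P2 and -0.21 at P5 but 0.16 at P8. Each value rests on 1 library per fraction, all 3 are within 1.5-fold, and the difference between stages was not tested.

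Of the other pathway genes named by the rule, 4 went one way from P2 to P8 in Cd73NC and the other way in Cd73PC. The log2 ratios were 0.048 and -0.71 for Cdon, 0.13 and -0.21 for Gpr161, -0.28 and 0.47 for Arl13b, and 0.47 and -0.40 for Prkar1a. Of these values, that of Cdon in Cd73PC alone passed 1.5-fold. These differences between the fractions were not tested either.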

How the results depend on the processing

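Of the 12 counts of genes past the threshold, each recomputed under 7 alternatives, 76 values were within 1.5 times the reported count and 8 were not. A threshold of 2-fold left 3 genes lower in Cd73PC at P5 (Smo, Gli2, and Gli3, from 7), 0 risen from P2 to P8 in Cd73PC (from 1, Sufu), and 0 risen from E15 to E18 (from 1, Gli3). The shares of all genes past 2-fold in these comparisons were 8.09%, 2.75%, and 1.57%. With a pseudocount of 0 or 0.1, the genes lower in Cd73PC at P8 numbered 5, with Boc and Gli1 added, and 1 gene, Boc, had fallen from E15 to E18, as it had after quantile normalization. Of all genes, 28.7% and 28.0% were then lower at P8, and 6.83% and 6.06% had fallen from E15 to E18 (3.01% after quantile normalization). At P2, 7 genes were then lower in Cd73PC (from 5), within 1.5 times the reported count. Those added were Ptch1 and Boc at a pseudocount of 0, and Shh and Boc at 0.1. The shares of all genes lower at P2 were 21.9% and 20.7%. Of the 211 log2 ratios of single genes recomputed, 34 moved, all under a pseudocount of 0 or 0.1 and all toward a larger change. Ratios past 1.5-fold kept their sign. Scaling turned the sign of some ratios near 0, of which the largest shift was that of Ptch1 between the fractions at P8 (-0.22, and 0.01 after quantile normalization). Quantile normalization shifted the median of expressed genes by 0.17 (P5), 0.24 (P8), and 0.17 (P2 to P8 in Cd73PC) on the log2 scale. Pairing the fractions by stage in limma, chosen after the data were seen, left Smo, Gli2, and Gli3 lower in Cd73PC at an adjusted p under 0.05, the 3 genes that were past 1.5-fold at all 3 stages. Those calls held without P2 or without P8 and were lost without P5. A ratio of 2 single libraries has no value once either is left out. The absolute depth is unknown, so no floor can be given for levels listed at 0, such as Shh.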

Other observations

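Scube3, which helps to release Hedgehog ligands from cells, and the genes named beside it were chosen after their values were seen. It was at 32.2 FPKM at E15 and 18.7 FPKM at E18. In Cd73NC it was at 9.76, 3.86, and 1.09 FPKM at P2, P5, and P8, and in Cd73PC at 9.89, 18.2, and 15.5 FPKM. The fractions thus had bounds that overlapped at P2 and differed by a log2 ratio of 1.98 at P5 and 2.98 at P8, higher in Cd73PC. Together with Dhh, 2 of the 7 genes listed as ligands or for ligand lipidation and release were higher in Cd73PC at P5 and P8. Hhat and Scube1 were lower at both stages. Of all genes, 7.02% and 7.53% were higher at P5 and P8, and 15.6% and 18.6% lower. Of genes with FPKM of at least 1 in some library, 11.3% and 12.1% were higher, and 25.1% and 29.6% lower. Hhat, the enzyme that attaches palmitate to the ligand, was at 3.52 and 0.79 FPKM in Cd73NC and Cd73PC at P5.

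Ccnd2, also chosen after its values were seen, went against the other proliferation genes at P2, with 9.75 FPKM in Cd73PC and 0.24 FPKM in Cd73NC. At P5 it was at 1.53 and 3.34 FPKM.

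At P2 the 4 astrocyte markers were all higher in Cd73PC, with a sum of 25.4 FPKM against 2.54 FPKM in Cd73NC, and at P5 and P8 all were lower. The 4 pigment epithelium markers summed to 53.6 FPKM in P2 Cd73PC and 0.595 FPKM in P2 Cd73NC. The 3 horizontal cell markers summed to 1.29 and 0.114 FPKM in P2 and P8 Cd73NC, and the 5 of endothelial cells and pericytes to 170.1 and 76.1 FPKM.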
